A study of Mus musculus with 18 samples.

Results

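The 42 genes described here drive, restrain or mark the cell division cycle: cyclins, cyclin-dependent kinases (CDKs) and their inhibitors, E2F and retinoblastoma family proteins, replication genes and genes of mitosis. They were taken by gene symbol from the deposited expression tables of enteric glial cell (EGC) cultures and bone-marrow-derived macrophages (BMDMs). Of the 42 genes, 37 had a row in the EGC table of 13452 genes and 40 had a row in the BMDM table of 11200 genes. All 37 of the EGC rows were among the 40 in BMDMs, and Aurkb and Bub1, a kinase of the chromosomal passenger complex and a kinase of the spindle checkpoint, had no row in either. Every member with a row reached a mean of 1 in at least 1 group of its table, so none was lost to the filter on low values.

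A cell that leaves rest passes from G1 into S phase when D-type cyclins with CDK4 or CDK6, and then cyclin E with CDK2, phosphorylate the retinoblastoma protein and its relatives, which frees E2F factors to switch on replication genes. The MCM2 to MCM7 helicase is loaded at origins in G1 with the help of CDC6 and CDT1. Mitotic genes follow, driven by cyclin B with CDK1 and ended by destruction of cyclin B through the anaphase-promoting complex. Macrophages grown from bone marrow divide in response to CSF-1, and inflammatory stimuli are known to slow that division. Glial cells can re-enter the cycle when they become reactive.

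The EGC cultures came from the muscularis externa of the small bowel of adult Bl6 (C57BL/6) mice, were expanded as neurospheres with FGF and EGF, and were held in a differentiation medium that still contained EGF. They received IL-1β at 10 ng/ml for 24 h or vehicle (labelled Control), with 3 samples per group. The BMDMs came from adult Il1R1-KO mice, which lack the IL-1 receptor, and were matured in RPMI with serum and CSF-1. They were exposed for 3 h to medium of IL-1β-treated EGCs (CM-IL1), to medium of vehicle-treated EGCs (CM-veh) or to RPMI, with 4 samples per group. All 3 BMDM groups carried the receptor deletion. The study describes the BMDMs without conditioned medium as untreated, while their label gives RPMI. The medium of the EGCs was a supplemented neurobasal medium, so products of the glia and the base medium itself cannot be told apart in a comparison of conditioned medium with RPMI.

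The tables give 1 least-squares mean per group, scaled by the authors so that a column added up to between 996052 and 997403 units, and hold no values of single samples. The depth of the libraries, the spread between samples and the error of each mean are therefore unknown, and no test was run. The differences below are described against a 1.5-fold limit, and beside the share of all genes that crossed it. A single transcript, AY036118, took between 21.4% and 25.1% of each column. In bulk RNA, fewer cells of a type and less RNA per cell cannot be told apart. The EGC cultures had the glial genes Sox10 (214 units with IL-1β and 238 with vehicle) and S100b (237 and 276), together with the fibroblast gene Dcn at 5298 units with IL-1β and 6593 with vehicle. Of 9 macrophage markers 4 had a row there, summing to 156 units with IL-1β and 135 with vehicle. The BMDMs had all 9 macrophage markers, with Csf1r, the CSF-1 receptor, at 728 units with CM-IL1, 784 with CM-veh and 943 with RPMI, and no row for Sox10 or S100b. Tags of Il1r1 stood at 9.57, 8.69 and 2.88 units in the CM-IL1, CM-veh and RPMI BMDMs, but reads of the 3′ end do not check the deletion. The part of these other cell types in the results below was not tested.

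Most cell cycle genes were lower in BMDMs given CM-IL1 than in BMDMs in RPMI, and fewer were lower with CM-veh. Of the 40 members, 25 were more than 1.5-fold lower with CM-IL1 than with RPMI, where 22.4% of all genes were, and 3 were more than 1.5-fold higher, where 8.46% of all genes were. With CM-veh against RPMI, 8 members were lower (10.8% of all genes) and 2 were higher (8.0% of all genes). With CM-IL1 against CM-veh, 12 members were lower (8.32% of all genes) and 1 was higher (2.71% of all genes). In the EGC cultures, 13 of 37 members were lower with IL-1β than with vehicle, against 21.2% of all genes, and 0 were higher, against 4.25% of all genes.

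The whole tables were shifted toward lower ratios as well, so the medians of the members are given with those of all genes. The median log2 ratio of the members was -0.69 for CM-IL1 over RPMI, while that of all genes was -0.19. For CM-veh over RPMI the members' median log2 ratio was -0.23 and that of all genes -0.03. For CM-IL1 over CM-veh the medians were -0.47 for the members and -0.14 for all genes, and for IL-1β over vehicle in EGCs they were -0.33 and -0.14. After centring each comparison on its median of all genes, 17 members were lower and 3 higher with CM-IL1 than with RPMI, where 14.4% and 12.9% of all genes were. The centred counts for CM-IL1 against CM-veh were 8 lower and 1 higher, beside 4.82% and 4.47% of all genes, and in EGCs they were 11 lower and 1 higher, beside 16.6% and 6.96%. The 3 BMDM comparisons share groups and are not separate observations.

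**Figure D1:**
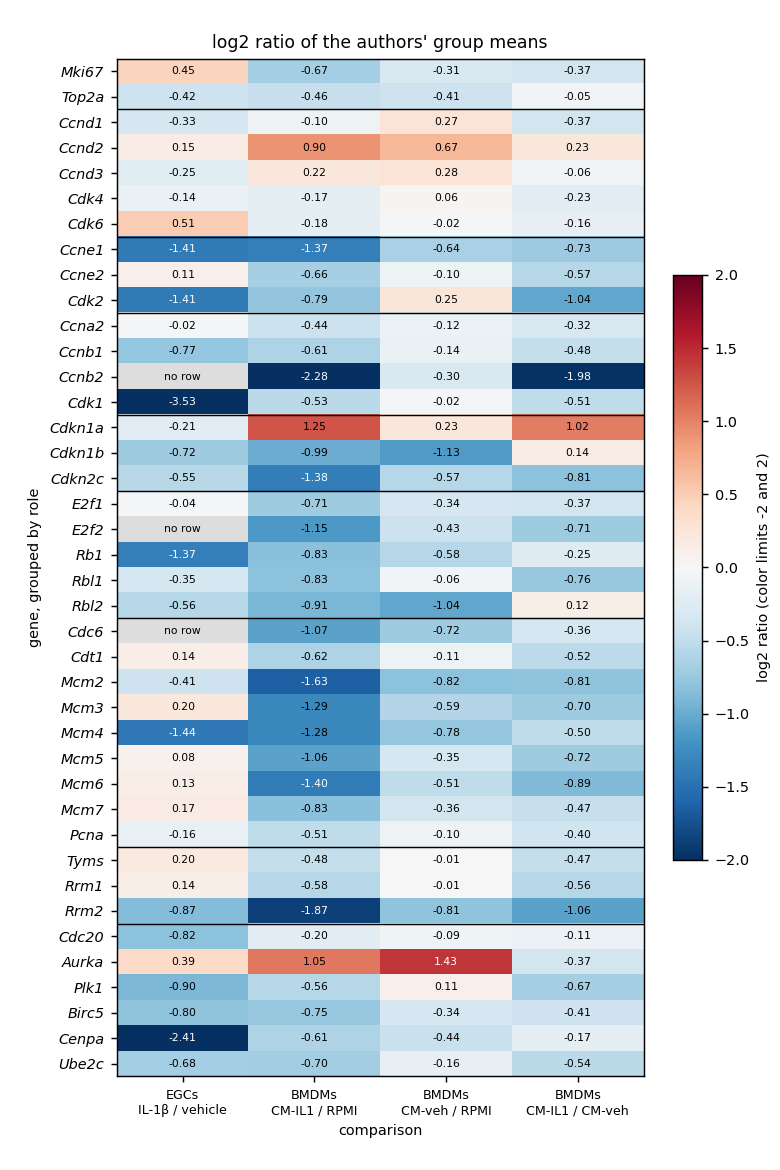
log2 ratio of the authors' group means for each cell cycle gene (rows, grouped by role) in the 4 comparisons (columns), with colors limited to between -2 and 2 and genes without a row in grey. The column of CM-IL1 over RPMI is below 0 for 36 of 40 genes, with Cdkn1a, Aurka and Ccnd2 as the genes past 1.5-fold in the other direction.

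The 9 genes of origin licensing and replication differed in 1 direction in BMDMs. All were lowest with CM-IL1 and highest with RPMI, with CM-veh between. Other members had this order too, among them Mki67, Top2a, E2f1, E2f2 and Rrm2, and its share among all genes was not counted. Of the 9 licensing and replication genes, 8 were more than 1.5-fold lower with CM-IL1 than with RPMI, where 22.4% of all genes were. The median of their log2 ratios was -1.07 for CM-IL1 over RPMI, -0.51 for CM-veh over RPMI and -0.52 for CM-IL1 over CM-veh. The genes Mcm2 to Mcm7 encode the 6 subunits of the replicative helicase. Mcm2 stood at 6.36 units with CM-IL1, 11.1 with CM-veh and 19.7 with RPMI, 3.09-fold lower with CM-IL1 than with RPMI. Mcm6 had 17.6 units with CM-IL1, 32.6 with CM-veh and 46.4 with RPMI, a 2.63-fold difference between the outer groups. Mcm3 had 23.0, 37.4 and 56.1 units in the same order of groups, 2.44-fold lower with CM-IL1 than with RPMI. Each of these 3 subunits was also more than 1.5-fold lower with CM-IL1 than with CM-veh, by 1.75-fold, 1.85-fold and 1.63-fold. Mcm4 had 6.98 units with CM-IL1, 9.88 with CM-veh and 17.0 with RPMI. Mcm5 had 14.1, 23.2 and 29.6 units in these groups, and Mcm7 had 28.3, 39.1 and 50.3 units. The order of the groups was therefore the same in each of the 6 genes. Cdc6 and Cdt1 encode the proteins that load the helicase onto origins. Cdc6 had 2.60 units with CM-IL1, 3.32 with CM-veh and 5.46 with RPMI, and Cdt1 had 22.4, 32.1 and 34.5 units, so the smaller part of the Cdt1 difference lay between CM-veh and RPMI. Pcna, the sliding clamp of the replicative polymerases, was the 1 gene of the group inside the limit, with 121 units with CM-IL1, 161 with CM-veh and 172 with RPMI (1.42-fold lower with CM-IL1 than with RPMI). Reads of Mcm7 may be mixed with those of Cops6, whose end overlaps it on the opposite strand, and of Mir25 and Mir93 within it, and Pcna has 2 annotated processed pseudogenes.

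**Figure D2:**
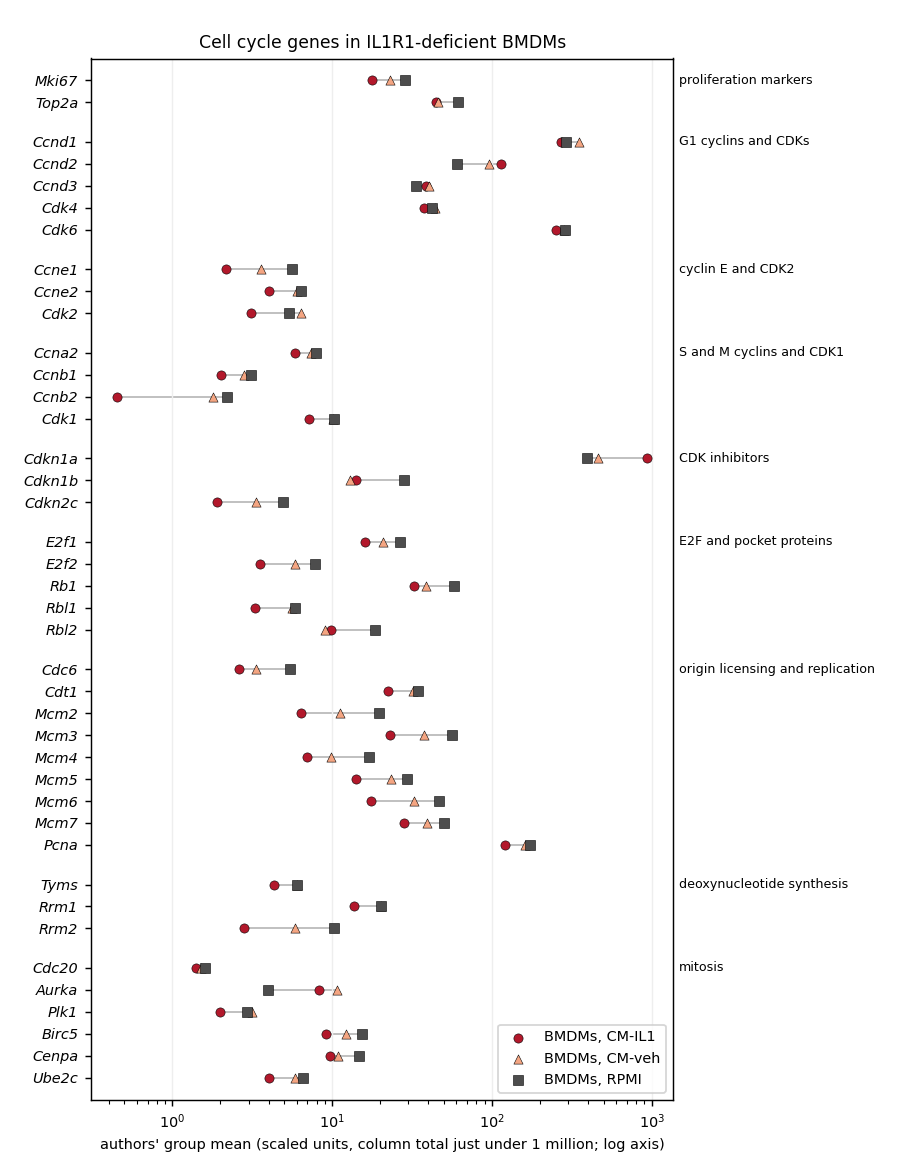
Authors' group mean of each cell cycle gene in BMDMs given CM-IL1 (circles), CM-veh (triangles) or RPMI (squares), in scaled units on a log axis, 1 point per group with no error available. All 9 genes of origin licensing and replication lie in the order CM-IL1, CM-veh, RPMI from left to right, while Cdkn1a lies far to the right with CM-IL1.

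The same 8 licensing and replication genes with a row in EGCs looked different there. Only Mcm4 was past the limit, at 4.67 units with IL-1β and 12.7 with vehicle, 2.71-fold lower. Mcm3 had 15.6 units with IL-1β and 13.6 with vehicle, Mcm6 had 12.7 and 11.5, and Mcm7 had 18.9 and 16.8. These subunits differed by less than 1.5-fold, as did Mcm2 (6.63 with IL-1β and 8.81 with vehicle), Mcm5 (2.53 and 2.39), Cdt1 (7.19 and 6.54) and Pcna (36.1 and 40.2). The subunits form 1 ring and act together, and Mcm4 was the only 1 of the 6 past the limit in EGCs. The difference between the EGC and the BMDM results was not tested.

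The promoters of 3 helicase genes that were low with CM-IL1 are shown because E2F factors are known to act on this group through short motifs near the start site. The window is that of RefSeq on GRCm38.p6, 250 bases before to 50 after the start of the gene, and position 1 is the first transcribed base. Capitals mark the letters TTTGGCGC, TTTCCCGC, TTTCGCGC or TTTGCCGC (an E2F motif) and CCAAT (the motif of NF-Y), each searched on both strands, with overlapping matches allowed. Mcm6 (chr1:128359656-128359955, minus strand) had E2F letters at -110, -106 and -47, Mcm3 (chr1:20820263-20820562, minus strand) at 20 and 39, and Mcm5 (chr8:75109259-75109558, plus strand) at -153 and -149.
Mcm6: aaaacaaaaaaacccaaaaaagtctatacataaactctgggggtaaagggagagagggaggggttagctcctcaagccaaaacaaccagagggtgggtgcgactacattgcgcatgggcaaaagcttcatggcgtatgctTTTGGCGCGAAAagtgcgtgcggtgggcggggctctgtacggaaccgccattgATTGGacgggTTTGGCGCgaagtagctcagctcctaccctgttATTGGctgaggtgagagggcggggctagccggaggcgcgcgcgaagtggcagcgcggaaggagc
Mcm3: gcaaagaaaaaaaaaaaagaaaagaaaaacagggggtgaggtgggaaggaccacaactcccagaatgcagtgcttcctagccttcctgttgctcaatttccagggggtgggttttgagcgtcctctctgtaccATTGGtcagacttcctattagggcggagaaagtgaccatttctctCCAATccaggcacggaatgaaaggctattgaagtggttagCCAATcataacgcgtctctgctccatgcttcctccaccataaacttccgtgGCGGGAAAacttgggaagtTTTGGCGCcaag
Mcm5: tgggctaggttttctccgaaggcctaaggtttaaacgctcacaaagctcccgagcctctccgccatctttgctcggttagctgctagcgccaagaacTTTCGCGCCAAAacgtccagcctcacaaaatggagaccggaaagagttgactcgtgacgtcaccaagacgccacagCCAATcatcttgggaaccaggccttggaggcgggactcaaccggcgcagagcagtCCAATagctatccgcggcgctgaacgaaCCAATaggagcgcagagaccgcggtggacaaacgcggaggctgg
In these sequences the neighbouring E2F matches of Mcm6 and of Mcm5 share bases, as they are read from opposite strands. Promoters were matched for 35 of the 42 members, 40 promoters in all. The 3 shown here all held an E2F motif. The promoter of Mcm2, the helicase gene with the largest difference between CM-IL1 and RPMI, held none. An E2F motif stood in 6 of the 9 promoters of licensing and replication genes, in 10 of the 40 promoters of all members (25%) and in 2.26% of the 32851 promoters of the table. It was present in 9 of 25 promoters of members lower with CM-IL1 than with RPMI and in 1 of 14 promoters of members with a row that were not. In EGCs it was present in 2 of 11 promoters of members lower with IL-1β and in 6 of 24 promoters of the others. A match of letters is a description and not a binding site.

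The enzymes of deoxynucleotide synthesis were split. Rrm2, the regulated subunit of ribonucleotide reductase, was 3.66-fold lower with CM-IL1 than with RPMI, at 2.79 units with CM-IL1, 5.84 with CM-veh and 10.2 with RPMI. It was 2.09-fold lower with CM-IL1 than with CM-veh and 1.75-fold lower with CM-veh than with RPMI, so both steps passed the limit. Rrm1, the large subunit, had 13.6 units with CM-IL1, 20.1 with CM-veh and 20.3 with RPMI, a 1.49-fold difference just inside the limit, and Tyms, thymidylate synthase, had 4.32, 6.005 and 6.03 units. In EGCs Rrm2 was also lower, at 3.73 units with IL-1β and 6.81 with vehicle (1.83-fold), while Rrm1 (31.6 and 28.7) and Tyms (13.6 and 11.9) stayed within 1.5-fold. Of these enzymes, Rrm2 was the one past the limit in both tables. Tyms has an annotated processed pseudogene, which makes its reads less certain.

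All 5 E2F and retinoblastoma family genes were more than 1.5-fold lower with CM-IL1 than with RPMI. E2f1 and E2f2 encode activating E2F factors. E2f1 had 16.1 units with CM-IL1, 20.9 with CM-veh and 26.4 with RPMI (1.64-fold lower with CM-IL1 than with RPMI), and E2f2 had 3.54, 5.82 and 7.86 units (2.22-fold lower). Rb1 encodes the retinoblastoma protein, which binds the activating E2Fs and holds cells in G1, and it was lower as well, with 32.7 units with CM-IL1, 38.9 with CM-veh and 58.0 with RPMI (1.78-fold). Rbl1 and Rbl2 encode its relatives p107 and p130, of which p130 is typical of resting cells. Rbl1 had 3.29 units with CM-IL1, 5.59 with CM-veh and 5.83 with RPMI, a difference that lay between the conditioned media. Rbl2 had 9.86, 9.06 and 18.6 units, so that both conditioned media were about as low and RPMI stood apart (1.88-fold lower with CM-IL1 and 2.05-fold lower with CM-veh than with RPMI). Activators and restrainers of E2F were thus low together. In EGCs, E2f1 had 18.8 units with IL-1β and 19.3 with vehicle, and E2f2 had no row. Rb1 was 2.58-fold lower, at 8.92 units with IL-1β and 23.0 with vehicle. Rbl2, at 16.2 and 24.0 units, lay just inside the limit (1.48-fold lower). The 3′ ends of Rb1 and Rbl2 overlap Rcbtb2 and Aktip on the opposite strand, and which strand was counted is not stated by the sources.

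D-type cyclins and their kinases, which carry growth factor signals into the cycle, mostly stayed within the limit in both tables. In EGCs, Ccnd2 had 2259 units with IL-1β and 2039 with vehicle, and Ccnd1 had 844 and 1061. Ccnd3 had 99.0 units with IL-1β and 118 with vehicle, and Cdk4 had 101 and 111. None of these passed 1.5-fold. Cdk6, at 269 units with IL-1β and 189 with vehicle, was the member closest to the limit on the higher side in EGCs (1.42-fold). In BMDMs, Ccnd2, cyclin D2, went against the other cell cycle genes, with 113 units with CM-IL1, 96.5 with CM-veh and 60.8 with RPMI. It was 1.86-fold higher with CM-IL1 and 1.59-fold higher with CM-veh than with RPMI. Ccnd1, a known early target of CSF-1 signalling, had 271 units with CM-IL1, 351 with CM-veh and 290 with RPMI. Ccnd3 (38.9, 40.5 and 33.4 units), Cdk4 (37.5, 44.0 and 42.3) and Cdk6 (252, 282 and 286) also differed by less than 1.5-fold in each comparison. The 3′ ends of Ccnd1, Ccnd2, Ccnd3 and Cdk4 each overlap a gene on the opposite strand, and Ccnd3 has an annotated processed pseudogene.

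The CDK inhibitors did not move as 1 group. Cdkn1a encodes p21, which blocks CDK2 and is induced by p53 and by inflammatory signals. It had 934 units in BMDMs given CM-IL1, against 459 with CM-veh and 392 with RPMI. It was 2.38-fold higher with CM-IL1 than with RPMI and 2.03-fold higher than with CM-veh, the only member past 1.5-fold on the higher side between the conditioned media. With CM-veh and RPMI its levels were within 1.17-fold. Cdkn1b, which encodes p27, an inhibitor that accumulates in resting cells, had 14.2 units with CM-IL1, 12.8 with CM-veh and 28.2 with RPMI. It was 1.99-fold lower with CM-IL1 and 2.19-fold lower with CM-veh than with RPMI, with the conditioned media within 1.10-fold of each other, the same pattern as that of Rbl2. Cdkn2c, which encodes p18, an inhibitor of CDK4 and CDK6, had 1.90 units with CM-IL1, 3.33 with CM-veh and 4.95 with RPMI, so it was 2.61-fold lower with CM-IL1 than with RPMI. In EGCs, Cdkn1a had 382 units with IL-1β and 442 with vehicle, within 1.5-fold. Cdkn1b was 1.64-fold lower with IL-1β, at 37.4 units against 61.4 with vehicle, and Cdkn2c had 3.79 and 5.55 units. Neither of the promoters matched for Cdkn1a held any of the motifs searched here.

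Cyclin E and CDK2 act at the entry into S phase, and all 3 genes were more than 1.5-fold lower with CM-IL1 than with RPMI. Ccne1 had 2.16 units with CM-IL1, 3.59 with CM-veh and 5.60 with RPMI, 2.59-fold lower with CM-IL1 than with RPMI. Ccne2 had 4.05, 5.99 and 6.41 units in these groups (1.58-fold lower). Cdk2 had 3.09 units with CM-IL1, 6.36 with CM-veh and 5.35 with RPMI, so that it was 1.73-fold lower than with RPMI and 2.06-fold lower than with CM-veh. The level of Cdk2 was thus low only with CM-IL1, whereas Ccne1 was already lower with CM-veh than with RPMI (1.56-fold). In EGCs Ccne1 had 2.96 units with IL-1β and 7.84 with vehicle, and Cdk2 had 3.41 and 9.06, each 2.65-fold lower with IL-1β. Ccne2, with 4.66 units with IL-1β and 4.32 with vehicle, did not follow its paralog. The 3′ end of Ccne2 overlaps Ints8 on the opposite strand.

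Of the cyclins of S phase and mitosis, the largest ratios belonged to low means. Cdk1, the kinase that drives entry into mitosis, had 0.828 units with IL-1β and 9.58 with vehicle in EGCs, 11.6-fold lower, the largest ratio of any member in either table. In BMDMs it had 7.12 units with CM-IL1, 10.2 with CM-veh and 10.3 with RPMI, within 1.5-fold. Ccnb2, a mitotic cyclin, had 0.453 units with CM-IL1, 1.79 with CM-veh and 2.21 with RPMI, 4.87-fold lower with CM-IL1 than with RPMI, and had no row in EGCs. At such levels a mean may rest on few reads, and how many cannot be read from the tables. Ccnb1, the partner of CDK1 in mitosis, had 2.02 units with CM-IL1, 2.80 with CM-veh and 3.09 with RPMI (1.53-fold lower with CM-IL1 than with RPMI), and in EGCs 1.13 units with IL-1β and 1.93 with vehicle (1.70-fold lower). Ccna2, cyclin A of S phase and G2, stayed within the limit everywhere, with 5.88, 7.33 and 7.95 units in the CM-IL1, CM-veh and RPMI BMDMs and with 5.71 and 5.79 units in the EGCs with IL-1β and vehicle. Cyclin A and CDK1 therefore did not move together in EGCs. Both Ccnb1 and Ccnb2 have an annotated processed pseudogene, and the 3′ end of Ccna2 overlaps Exosc9 on the opposite strand.

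The genes of mitosis proper were the group with the largest share past the limit in EGCs, where 5 of 6 with a row were lower with IL-1β. Their means were low, none above 3.64 units in either group. Of all genes with a mean under 10 in both groups, 30.4% were lower. Of 44 other genes of G2/M and mitosis, 20.5% were lower, near the 21.2% of all genes. Cenpa, the histone variant that marks centromeres, had 0.592 units with IL-1β and 3.15 with vehicle (5.33-fold lower). Plk1, a kinase of mitotic entry and spindle assembly, had 1.17 and 2.19 units (1.87-fold lower), and Cdc20, the activator of the anaphase-promoting complex, had 1.74 and 3.06 (1.76-fold lower). Birc5, survivin of the chromosomal passenger complex, had 2.08 units with IL-1β and 3.64 with vehicle (1.75-fold lower). Ube2c, the E2 enzyme of the anaphase-promoting complex, had 1.39 and 2.23 (1.61-fold lower). Aurka, the centrosomal Aurora kinase, went the other way without passing the limit, with 2.21 units with IL-1β and 1.69 with vehicle.

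**Figure D3:**
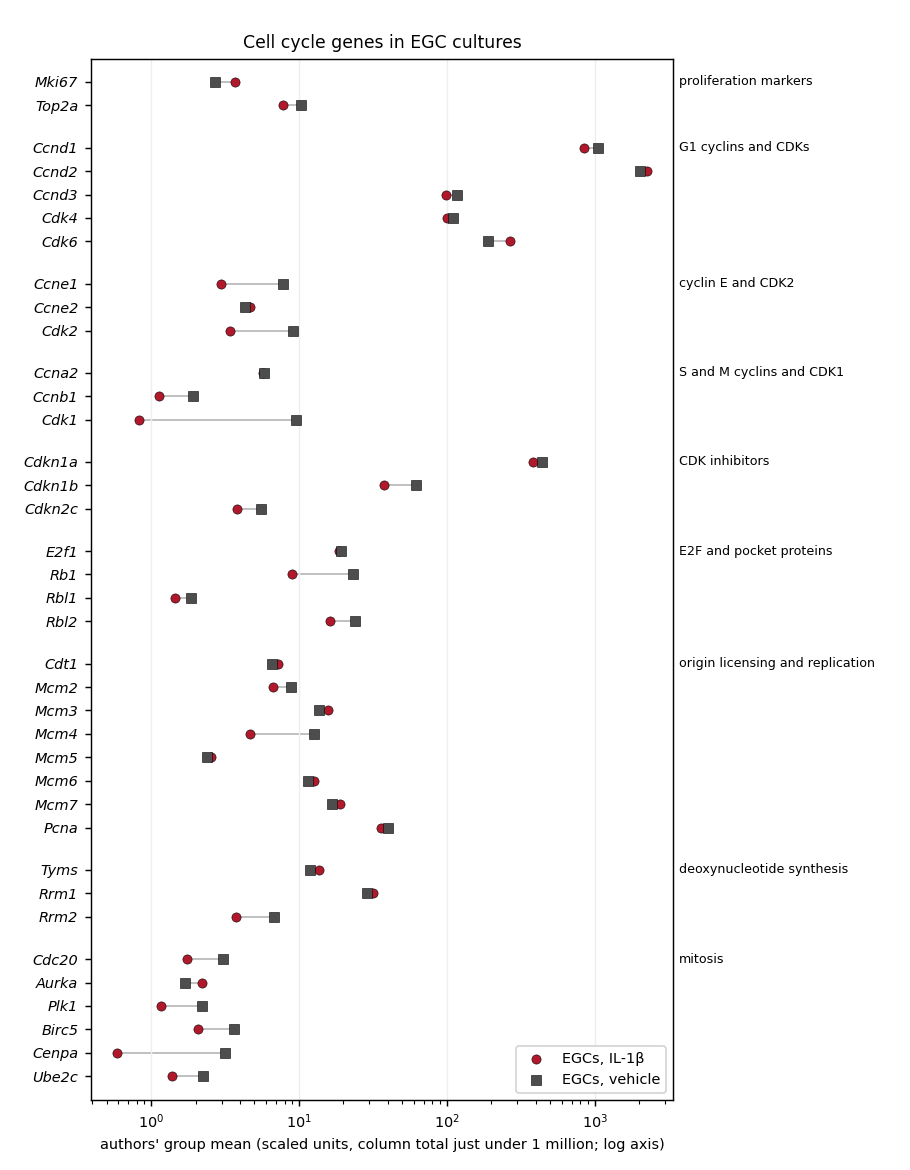
Authors' group mean of each cell cycle gene in EGC cultures with IL-1β (circles) or vehicle (squares), in scaled units on a log axis, 1 point per group with no error available. Cdk1 shows the widest gap, at 0.828 units with IL-1β and 9.58 with vehicle, and the D-type cyclins and their kinases lie at between 99.0 and 2259 units.

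In BMDMs, Aurka set itself apart from the other mitosis genes. It had 8.27 units with CM-IL1, 10.7 with CM-veh and 3.98 with RPMI, so it was 2.08-fold higher with CM-IL1 and 2.69-fold higher with CM-veh than with RPMI. Birc5 had 9.12 units with CM-IL1, 12.1 with CM-veh and 15.4 with RPMI (1.69-fold lower with CM-IL1 than with RPMI). Cenpa had 9.65, 10.9 and 14.7 units (1.53-fold lower), and Ube2c had 4.03, 5.85 and 6.55 units (1.62-fold lower). These 3 genes share the order CM-IL1, CM-veh, RPMI with the licensing genes and with other members, Cdc20 among them. Plk1 had 1.98 units with CM-IL1, 3.15 with CM-veh and 2.93 with RPMI, past the limit between the conditioned media (1.59-fold lower) and inside it against RPMI. Cdc20 had 1.40, 1.51 and 1.61 units, with no difference over 1.15-fold. The 3′ ends of Cdc20 and Ube2c overlap Elovl1 and Tnnc2 on the opposite strand.

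Mitotic genes are known to carry a CHR element, which recruits MuvB complexes, together with CCAAT boxes. The promoters of Cdk1 and Cenpa, with the largest EGC ratios, and of Aurka, which had the opposite direction in BMDMs, are shown for comparison. Capitals mark TTTGAA or TTCGAA (CHR), CCAAT and, in Cdk1, the E2F letters given above, on either strand. Cdk1 (chr10:69352863-69353162, minus strand) had CHR letters at -71 and -15 and E2F letters at -131, Cenpa (chr5:30666636-30666935, plus strand) had CHR letters at 17 and Aurka (chr2:172370521-172370820, minus strand) at 33.
Cdk1: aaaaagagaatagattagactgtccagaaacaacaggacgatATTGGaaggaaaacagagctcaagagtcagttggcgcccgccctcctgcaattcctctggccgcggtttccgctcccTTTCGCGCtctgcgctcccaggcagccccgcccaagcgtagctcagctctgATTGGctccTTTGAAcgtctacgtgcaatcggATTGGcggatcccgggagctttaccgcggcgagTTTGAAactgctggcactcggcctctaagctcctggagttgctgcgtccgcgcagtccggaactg
Cenpa: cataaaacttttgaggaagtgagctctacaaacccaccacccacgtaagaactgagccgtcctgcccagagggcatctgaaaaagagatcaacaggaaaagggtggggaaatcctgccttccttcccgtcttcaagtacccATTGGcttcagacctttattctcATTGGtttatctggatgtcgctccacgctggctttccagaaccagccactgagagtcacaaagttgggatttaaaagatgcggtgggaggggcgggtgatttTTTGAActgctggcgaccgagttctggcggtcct
Aurka: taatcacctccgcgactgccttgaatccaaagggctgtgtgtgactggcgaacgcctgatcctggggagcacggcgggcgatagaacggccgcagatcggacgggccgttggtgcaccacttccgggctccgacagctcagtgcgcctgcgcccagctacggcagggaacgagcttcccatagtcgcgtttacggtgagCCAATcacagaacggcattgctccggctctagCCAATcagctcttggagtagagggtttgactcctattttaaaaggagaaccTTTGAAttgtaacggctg
The CHR letters stood in 6 of the 7 promoters of mitosis genes, in 14 of the 40 promoters of all members (35%) and in 19.2% of all promoters. CCAAT stood in 26 of the 40 (65%) and in 37.4% of all promoters. None of the 7 mitosis promoters held the E2F letters, and Aurka, which was higher in BMDMs with both conditioned media, had the CHR and CCAAT letters as Cenpa did. Among members lower with CM-IL1 than with RPMI the CHR letters were in 8 of 25 promoters, and among those with a row that were not, in 5 of 14.

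The proliferation markers Mki67 and Top2a are the genes most often used to count cycling cells. Mki67 had 17.8 units with CM-IL1, 23.0 with CM-veh and 28.4 with RPMI, 1.59-fold lower with CM-IL1 than with RPMI. Top2a, a topoisomerase of S phase to mitosis, had 44.5, 46.1 and 61.2 units, within 1.5-fold (1.38-fold lower with CM-IL1 than with RPMI). For Top2a the conditioned media lay within 1.04-fold of each other. In EGCs, Mki67 had 3.70 units with IL-1β and 2.71 with vehicle, while Top2a had 7.75 and 10.4, so the markers pointed in opposite directions and neither passed the limit.

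How many members crossed the limit depended on their level, as it did for all genes. In EGCs, of the 19 members with a mean under 10 in both groups, 10 were lower with IL-1β, beside 30.4% of all genes at that level. Of the 18 members that reached a mean of 10 in a group, 3 were lower (Cdkn1b, Rb1 and Mcm4), a share of 16.7% that lay near the 16.0% of all genes at that level. In BMDMs with CM-IL1 against RPMI, 15 of 25 members that reached 10 were lower, a share of 60.0% beside 15.3% of all genes, and 10 of 15 members under 10 were lower, beside 35.3%. With CM-veh against RPMI, 6 of 26 members at the higher level were lower, beside 6.3% of all genes, and 2 of 14 at the lower level, beside 19.1%. For CM-IL1 against CM-veh, 4 of 23 members at the higher level were lower, beside 3.34% of all genes, and 8 of 17 under 10, beside 16.5%. The excess over all genes was thus seen at both levels with CM-IL1, and in EGCs it lay among members with low means.

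**Figure D4:**
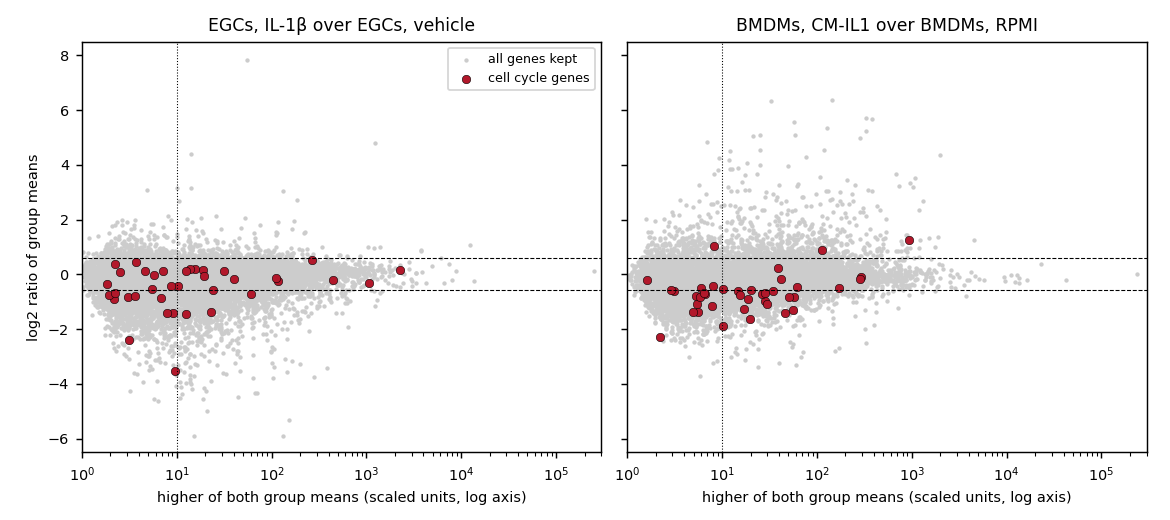
log2 ratio of group means against the higher of both group means (scaled units, log axis) for all genes kept (grey) and the cell cycle genes (red), in EGCs with IL-1β over vehicle (left) and BMDMs with CM-IL1 over RPMI (right). Dashed lines mark 1.5-fold and the dotted line a mean of 10, and grey points spread more widely to its left in both panels.

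Several members lay close to the limit, so the counts turn on small differences. In EGCs, Ube2c was the last inside the count (1.61-fold lower) and Rbl2 the first outside it (1.48-fold). For CM-IL1 against RPMI these were Cenpa (1.53-fold) and Rrm1 (1.49-fold). For CM-veh against RPMI they were Mcm3 (1.5002-fold) and Rb1 (1.49-fold), and for CM-IL1 against CM-veh they were Plk1 (1.59-fold) and Ccne2 (1.48-fold).

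The tables of EGCs and BMDMs share no samples, and 37 members had a row in both. Of these, 13 were lower with IL-1β in EGCs and 22 were lower with CM-IL1 than with RPMI in BMDMs. The 10 genes lower in both were Ccne1, Cdk2, Ccnb1, Cdkn1b, Rb1, Mcm4, Rrm2, Birc5, Cenpa and Ube2c, which is 76.9% of the EGC list and 45.5% of the BMDM list. Among all 10317 genes kept in both tables, 637 were lower in both, 36.6% of the 1740 lower in EGCs and 28.6% of the 2230 lower in BMDMs. The 76.9% and the 36.6% start from unlike base shares. In BMDMs 22 of the 37 members were lower, but 2230 of the 10317 genes. The larger share of the members is therefore no sign of a closer overlap, which was not tested. Cdk1, Plk1 and Cdc20 were the members lower in EGCs that did not pass the limit in BMDMs with CM-IL1 against RPMI. The EGCs had IL-1β for 24 h and the BMDMs conditioned medium for 3 h, so times, agents and cells all differed.

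Other genes of the cycle, taken from lists by phase and function, were also mostly lower with CM-IL1 in BMDMs. With CM-IL1 against RPMI, 22.4% of all genes were lower and 8.46% higher. Of 54 other genes of G1/S and replication with a row, 36 were lower (66.7%) and 0 higher, with a median log2 ratio of -0.82. Hells, a chromatin helicase of replicating cells, had 3.78 units with CM-IL1 and 12.2 with RPMI (3.23-fold lower). Of 53 other genes of G2/M and mitosis, 35 were lower (66.0%) and 0 higher, with a median of -0.71. Hmgb2, a chromatin protein of dividing cells, had 5.12 units with CM-IL1, 6.28 with CM-veh and 22.1 with RPMI, and Kif20b, a mitotic kinesin, had 3.69 with CM-IL1 and 11.8 with RPMI. At the other end of these lists, E2f3 was 1.33-fold higher with CM-IL1 (16.3 units against 12.2 with RPMI), as was Lmnb1 (31.2 against 23.5), both inside the limit. With CM-veh against RPMI, 10.8% of all genes were lower and 8.0% higher. Of the 54 G1/S genes 14 were lower (25.9%) and 1 higher. The higher one was Cdc25a, a phosphatase that activates CDKs (17.6 units with CM-veh and 11.01 with RPMI, 1.59-fold). Of the 53 G2/M genes 19 were lower (35.8%) and 0 higher. Pold1, the catalytic subunit of polymerase delta, was the lowest of the G1/S list among genes with a mean of at least 10 (6.47 units with CM-veh and 13.6 with RPMI). For CM-IL1 against CM-veh, 19 of the 54 (35.2%) and 10 of the 53 (18.9%) were lower and 0 higher in both lists. Of all genes, 8.32% were lower and 2.71% higher. The median level of the G2/M list was 3.19 units with CM-IL1 and 4.45 with CM-veh. Among all genes with a mean under 10 in both groups, 16.5% were lower, near the share of the G2/M list.

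Among genes with a wider role, those of the anaphase-promoting complex and the other CDKs stayed under the share of all genes for CM-IL1 against RPMI. Of 17 anaphase-promoting complex genes, 2 were lower and 1 higher with CM-IL1 than with RPMI, the higher one being Ube2s, an E2 enzyme of the complex (37.3 units with CM-IL1 and 24.6 with RPMI). Of 23 other CDKs, CDK regulators and SCF genes, 2 were lower and 1 higher, with Cdk19, a kinase of the Mediator complex, at 25.95 units with CM-IL1 and 50.04 with RPMI and Cdkn2d, which encodes the inhibitor p19, at 13.2 and 8.28. Of 7 MuvB and repressor E2F genes, 2 were lower and 0 higher (28.6% lower, beside 22.4% of all genes). Genes of p53 and growth arrest lay on both sides, with 11 of 28 lower (39.3%) and 4 higher (14.3%). Both shares were above those of all genes, 22.4% lower and 8.46% higher. Bbc3, which encodes the pro-apoptotic PUMA, had 2.27 units with CM-IL1, 3.57 with CM-veh and 23.8 with RPMI, and Sesn1, a stress-induced sestrin, had 4.19 with CM-IL1 and 39.6 with RPMI (9.46-fold lower). Plk3, a stress-responsive kinase, had 21.8 units with CM-IL1, 21.2 with CM-veh and 3.97 with RPMI, and Btg1, an antiproliferative gene, had 534, 313 and 133. This list mixes p53 targets with other growth arrest genes. Trp53 itself had 5.38 units with CM-IL1 and 8.79 with RPMI (1.63-fold lower). Cdkn1a, itself a p53 target, was thus high beside genes of this mixed list in both directions.

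In EGCs the other G1/S list had 12 of 50 genes lower with IL-1β and 3 higher, with a median log2 ratio of -0.18, and the other G2/M list had 9 of 44 lower and 1 higher, with a median of -0.29. These shares, 24.0% and 20.5%, stood near the 21.2% of all genes. Msh6, a mismatch repair gene, had 4.34 units with IL-1β and 10.5 with vehicle, and Cks2, a small CDK-binding protein, had 6.48 and 10.7 (1.66-fold lower). Cdc25a had 17.0 units with IL-1β and 11.7 with vehicle, inside the limit. Of 25 other CDKs, CDK regulators and SCF genes, 7 were lower and 0 higher. Cdkn2a, which encodes the inhibitors p16 and ARF, had 85.4 units with IL-1β and 245 with vehicle (2.86-fold lower), and Cdkn2d had 7.25 and 21.3 (2.94-fold lower). The 7 lower genes were 28.0% of this list, beside 21.2% of all genes. The inhibitor genes Cdkn1c (261 units with IL-1β and 291 with vehicle) and Cdkn1a (382 and 442) stayed within the limit. Cdkn2a, Cdkn2d and Cdkn1b were low in the same cultures in which Cdk1, Ccne1 and Cdk2 were low. Of 8 MuvB and repressor E2F genes, 3 were lower, among them E2f4 (4.59 units with IL-1β and 13.7 with vehicle). Of 17 anaphase-promoting complex genes, 3 were lower, with Cdc26 at 8.60 units with IL-1β and 25.03 with vehicle and Anapc10 at 5.10 and 13.3. Of 30 p53 and growth arrest genes, 6 were lower and 2 higher, with Ccng2, a cyclin of resting cells, at 1.28 units with IL-1β and 12.1 with vehicle (9.45-fold lower), Gas1, a growth arrest gene, at 18.6 and 55.1, and Plk2 at 19.0 and 10.2 (1.87-fold higher).

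**Figure D5:**
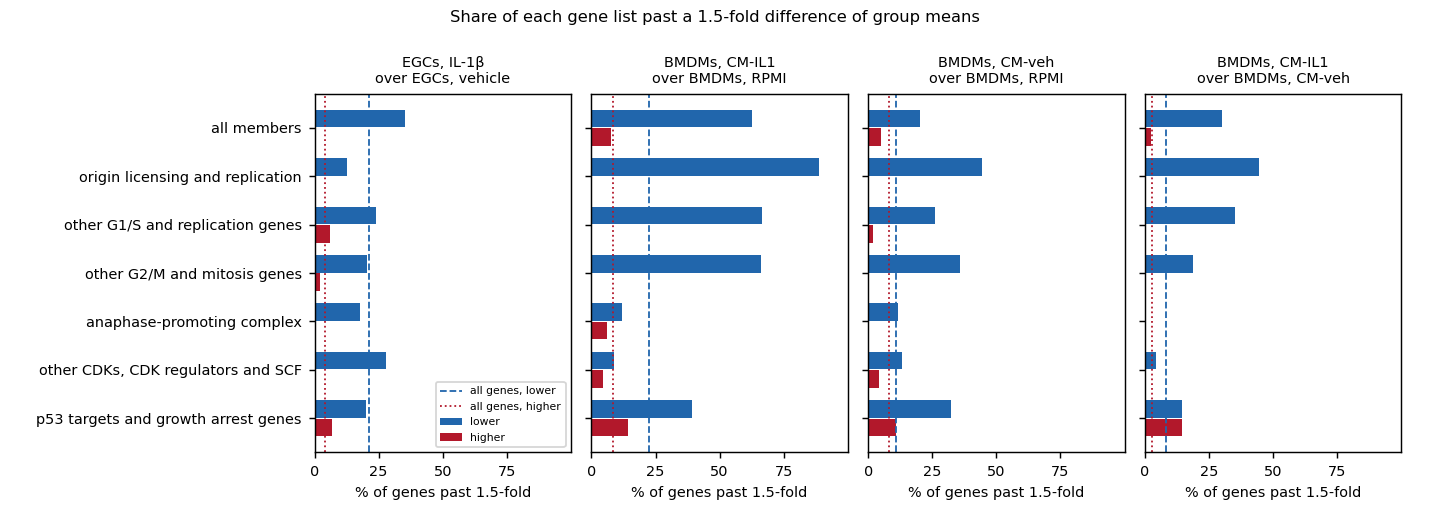
Percentage of the genes with a row in each list (rows) that were more than 1.5-fold lower (blue) or higher (red) in the 4 comparisons (panels), with lines for all genes. For CM-IL1 over RPMI the members (62.5% lower) and the other G1/S (66.7%) and G2/M lists (66.0%) reach far past the 22.4% of all genes, while the anaphase-promoting complex (11.8%) does not.

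Markers of the cells in culture were read beside these values. With IL-1β, 21.2% of all genes in the EGC cultures were more than 1.5-fold lower and 4.25% higher. Of the markers there, 4 of 11 glial, 4 of 7 neuronal, 3 of 6 smooth muscle and 1 of 7 fibroblast markers were lower. Of the smooth muscle markers, 1 was higher. The glial markers summed to 2011 units with IL-1β and 2394 with vehicle, and the fibroblast markers to 14460 and 17109. Which of these cells carried the cell cycle RNA cannot be told apart in bulk, and a part of a changed mix of cells was not tested. In the BMDMs 0 of 9 macrophage markers were lower and 3 were higher with CM-IL1 than with RPMI, beside 22.4% and 8.46% of all genes. The 4 fibroblast markers with a row summed to 74.7 units with CM-IL1, 67.4 with CM-veh and 77.8 with RPMI.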

How the data were processed

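Samples were grouped by their labels into EGCs with IL-1β or vehicle (3 samples each) and Il1R1-KO BMDMs with CM-IL1, CM-veh or RPMI (4 samples each). Libraries were prepared by the authors with a strand-specific QuantSeq 3′ mRNA kit and read single-end. Reads were handled on mm10 with cutadapt, STAR and Partek according to the submitters' processing notes, which give no versions. Neither the normalization nor the strand counted is stated there or in the study's methods. The authors deposited 2 tables of their comparisons. Their group columns hold least-squares means, a scaled signal that the authors made comparable by bringing each column to about the same total (996052 to 997403 units). The choice between CPM, TPM or another scale is not stated. Differences were therefore taken within a gene and a table, and sums over marker genes were compared only between groups of 1 table. The columns with the authors' p-values, adjusted p-values, ratios and folds were not used, and 0 columns held values of single samples.

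Ratios and log2 ratios of the group means were computed in Python 3.11.15 with pandas 2.3.3 for genes with a mean of at least 1 in 1 group (13445 of 13452 in EGCs, 11200 of 11200 in BMDMs). A gene was counted as higher or lower past a 1.5-fold difference, the fold limit of the study's methods, with no test, since 1 value per group leaves no spread. Alternatives were a limit of 2-fold, a mean of at least 10, a pseudocount of 1, no filter, rescaling without the most abundant gene and centring on the median of all genes. Members are given in full where they passed the limit or led their role, and of each list of other cell cycle genes the 2 highest and 2 lowest ratios among genes with a mean of at least 10 were eligible for naming, of which a few are counted but not reported by name here. Genes such as Aurka, Mcm4 and Hmgb2 that are set apart in the text were singled out after their values were seen. The members and lists were chosen with earlier results of these data known. Gene positions came from GENCODE vM21 and promoters from RefSeq on GRCm38.p6, and the last 1000 bases of each member were searched for overlapping genes on either strand. The counting steps were tested on simulated data.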

Additional observations from a re-analysis of the deposited data

How the results depend on the processing

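No paired analysis was possible because the tables hold group means and no values of single samples, and leaving out replicates could not be run for the same reason. No median of the members and no member past the limit reversed its direction under any alternative. Members inside the limit were not followed for this. At a limit of 2-fold, 6 members were lower in EGCs (9.97% of all genes), 11 with CM-IL1 against RPMI (8.42%), 2 with CM-veh against RPMI (3.01%, with 1 member and 2.97% of all genes higher) and 3 with CM-IL1 against CM-veh (1.53%). With a mean of at least 10 in a group of the table, 3 members were lower in EGCs, beside 16.0% of all genes. In BMDMs 15 were lower with CM-IL1 against RPMI and 5 with CM-IL1 against CM-veh, and the share of all genes was not counted at this setting. The median log2 ratios of the members in the order EGCs, CM-IL1 over RPMI, CM-veh over RPMI and CM-IL1 over CM-veh were -0.15, -0.65, -0.34 and -0.37. With a pseudocount of 1 these medians were -0.25, -0.62, -0.17 and -0.40. At this setting 5 members were lower with CM-veh against RPMI, and the share of all genes was not counted. Rescaling without the most abundant gene gave medians of -0.30, -0.68, -0.27 and -0.42. Centring on the median of all genes gave -0.20, -0.50, -0.20 and -0.33. With it 11, 17, 7 and 8 members were lower, beside 16.6%, 14.4%, 9.87% and 4.82% of all genes, and 1 member, Cdk6, was higher in EGCs. Of 64 values of single members past the limit, 38 were no longer past it at 2-fold, 15 after centring and 14 with a pseudocount of 1, and none was lost by rescaling or without the filter. Only 35 of the 64 belonged to members with a mean of at least 10 in a group of the table. Means of a few units rest on an unknown number of reads, so the largest ratios among low members, such as Cdk1 in EGCs and Ccnb2 in BMDMs, have an unknown error.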
